A study of Mus musculus with 49 samples.

Results

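Mouse embryonic stem cells that had been driven toward neural fates in the continuous presence of venlafaxine were compared with undosed cultures of the same age. The comparison set 7 libraries of day 13 cultures given 90 µM venlafaxine from day 3 against 7 libraries of day 13 control cultures, which are 14 of the 49 libraries measured in all. All genes with enough counts to be tested, 16397 of the 52550 in the table, were described. The cells were ES-D3, an established mouse line, kept as embryoid bodies until dosing and then differentiated by the protocol of the neural embryonic stem cell test, a developmental neurotoxicity assay in a dish. Controls received no antidepressant, and the labels name no solvent. PolyA RNA was sequenced from strand-specific TruSeq libraries. The labels speak of 8 samples per condition, of which 7 were used here, and do not state if a group's samples are separate differentiation runs, so p-values measure the spread between samples that may be technical. Day 13 cultures with 2 µM fluoxetine entered the same fit. Day 7 cultures with 90 µM venlafaxine from day 3, and day 7 controls, were used to ask whether the effect differed between the days.

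Venlafaxine blocks reuptake of serotonin and noradrenaline at the transporters encoded by Slc6a4 and Slc6a2, which sit on the axons of neurons that release these transmitters. In neural cultures of this kind dividing progenitors give rise first to neurons and later to astrocytes and oligodendrocytes, so the balance between cell cycle genes and neuronal genes follows how far the cells have matured. Embryoid bodies are also known to form an outer layer of primitive endoderm that lays down a basement membrane of laminin, nidogen and type IV collagen, and can keep a few cells of early embryonic character.

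Libraries held 14333181 to 29225775 counts, with 21118728 ± 4685856 in venlafaxine and 22037247 ± 4676386 in control (mean ± SD, n = 7 each, two-sided exact permutation test p = 0.711). Mitochondrial genes took 1.68% of counts in venlafaxine and 1.72% in control (exact permutation test p = 0.321). On the first principal component of log2 CPM, which carried 46.7% of the variance, venlafaxine libraries lay between 2.45 and 42.7 and control libraries between -50.9 and 18.9. Control replicate 4, at 18.9, lay among the venlafaxine libraries, while venlafaxine replicate 1, at 42.7, and control replicate 1, at -50.9, lay at the ends. Counts are therefore given below with and without the libraries that moved them. Neural markers were abundant: neuronal markers summed to 3820 to 5561 CPM in venlafaxine and 4868 to 6503 CPM in control (counts scaled to an equal library size, 7 genes). Oligodendrocyte lineage markers summed to 682 to 1076 CPM in venlafaxine and 383 to 820 CPM in control (7 genes). Mural cell and fibroblast markers reached into the oligodendrocyte range, with 333 to 720 CPM in venlafaxine and 219 to 989 CPM in control (5 genes). Markers of heart and skeletal muscle summed to at most 6.95 CPM in venlafaxine and 8.92 CPM in control (6 genes). Microglia and blood markers summed to 3.91 to 8.45 CPM in venlafaxine and 1.34 to 4.73 CPM in control (5 genes). C1qa and Hba-a1 among them were at 0 in all 14 libraries. Only 1 of the 5 had enough counts to be tested, and it was called higher (as defined below) when all libraries were fitted.

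After exposure up to day 13, many genes of the cell cycle, glia and basement membrane and some of the early embryo were higher. Many genes of neurons were lower. Of 16397 genes, 3753 (22.9%) passed an adjusted p of 0.05 in edgeR's quasi-likelihood test and are called changed here. Of these 1897 rose (11.6% of genes tested) and 1856 fell (11.3%). Most changes were small, with a median size of 0.27 on the log2 scale among called genes, and the median log2 fold change of all genes tested was -0.01. Larger changes leaned upward: 455 genes rose and 80 fell by more than 1.5-fold, and 143 rose and 19 fell by more than 2-fold. The CPM of the 7 venlafaxine and 7 control libraries did not overlap for 240 genes (1.46%), of which 144 were called higher and 91 lower.

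The number of genes called depended on single libraries. It was 1236 without venlafaxine replicate 1, 2383 without venlafaxine replicate 2, 1621 without venlafaxine replicate 8, 1253 without control replicate 1, 1946 without control replicate 6 and 1367 without control replicate 8. It was 5382 with control replicate 4 left out instead. In all 14 fits that each left out 1 library, 1115 genes kept their call, 605 higher and 510 lower, and single genes said below to have risen or fallen are among these unless libraries are named. Counts of list members are from the fit of all libraries, and stand against 11.6% of all genes called higher and 11.3% called lower. Where such a count of 3 or more moved by over 1.5 times on leaving out 1 library, the moved counts are given, and most counts of 1 or 2 also turned on single libraries. In bulk RNA, fewer cells of a type and less RNA per cell cannot be told apart.

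**Figure D1:**
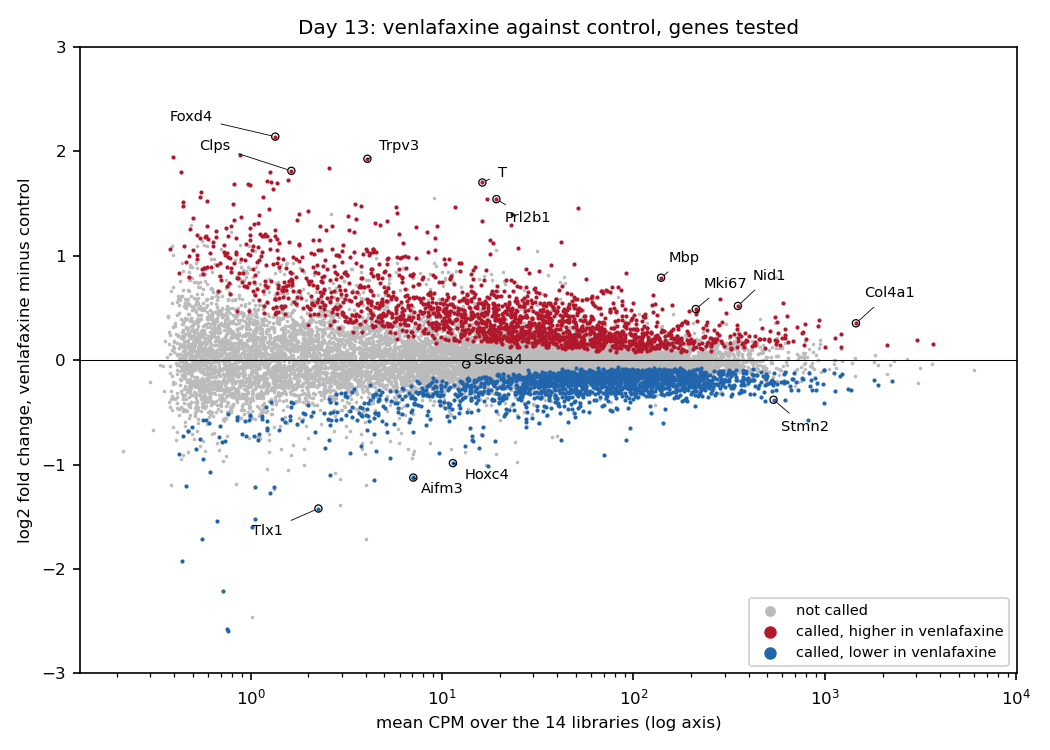
Log2 fold change of each tested gene (vertical axis, venlafaxine minus control on day 13) against its mean CPM over the 14 libraries (horizontal log axis); red and blue points are called genes and grey points are not called. Called changes beyond 1 log2 unit are mostly upward and of low level, while abundant genes such as Col4a1 (0.35) and Stmn2 (-0.38) changed less.

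The smallest adjusted p among the genes named here was that of Trpv3, which encodes a heat-activated cation channel best known in skin (chr11:73267388-73300363, plus strand, GRCm38). It had 4.60, 6.19 and 8.93 CPM as the lowest, median and highest of the venlafaxine libraries and 1.33, 1.67 and 2.04 CPM in control, a log2 fold change of 1.93 ± 0.152 (SE, adjusted p = 2.38e-07). Every venlafaxine library lay above every control library. On day 7 it had not passed the test (0.37, adjusted p = 0.352), and the effect of day 13 exceeded that of day 7 by 1.56 (adjusted p = 1.09e-04). Trpv3 was also higher than in fluoxetine cultures of the same day, by 1.27 (adjusted p = 9.09e-05).

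Clps encodes colipase, a cofactor of pancreatic lipase (chr17:28558210-28560766, minus strand). Its lowest, median and highest values were 1.98, 2.34 and 3.52 CPM in venlafaxine and 0.484, 0.646 and 1.17 CPM in control (1.81 ± 0.194, adjusted p = 3.57e-05). The groups did not overlap, and the effect exceeded that of day 7 by 2.26 (adjusted p = 1.64e-05). Foxd4, a forkhead transcription factor gene, rose by 2.14 ± 0.488 (adjusted p = 0.0108), from a low level: its median was 1.77 CPM in venlafaxine and 0.553 CPM in control. Car4, which encodes a membrane-bound carbonic anhydrase, had a median of 24.1 CPM in venlafaxine and 7.75 CPM in control (1.54 ± 0.408, adjusted p = 0.0172), with no overlap in either gene.

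Some genes of the epiblast and primitive streak, the early embryo's source of all body layers, were among the largest rises. Of 24 tested members of a list added after values were seen, 13 rose and none fell, with a median log2 fold change of 0.80. Among all genes, 11.6% rose. Because members were chosen with values known, the count describes these members only and cannot show a rise of such genes as a set. T (Brachyury), the transcription factor that marks the primitive streak, had 13.4, 24.5 and 36.5 CPM as lowest, median and highest in venlafaxine and 0.696, 5.90 and 14.3 CPM in control (1.70 ± 0.455, adjusted p = 0.0178). The lowest venlafaxine library lay just under the highest control library. Eras, an embryonic stem cell GTPase gene, rose by 1.73 ± 0.436. Outside the list, Pkd1l1, a ciliary channel gene of left-right patterning, rose by 1.48 ± 0.379, and Hesx1 and Six3, homeobox genes of the anterior neural plate, rose by 1.97 ± 0.507 and 1.64 ± 0.422 from medians under 1 CPM in control. The epiblast count was 4 without venlafaxine replicate 1, 8 without venlafaxine replicate 2, 5 without venlafaxine replicate 8, 4 without control replicate 1, 6 without control replicate 6 and 4 without control replicate 8.

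Of 26 pluripotency genes all lay above 0 and 4 were called higher, where 11.6% of all genes were, with a median log2 fold change of 0.65. Dnmt3l, the cofactor of de novo DNA methylation, had 12.2, 14.5 and 25.8 CPM in venlafaxine and 1.29, 6.89 and 12.6 CPM in control (1.47 ± 0.373, adjusted p = 0.0151). Sall4, a zinc finger factor of stem cells and early lineages, rose by 1.07 ± 0.263. The defining factors did not pass: Pou5f1 (Oct4) had a median of 37.7 CPM in venlafaxine and 18.8 CPM in control (1.05, adjusted p = 0.0831) and Nanog 19.3 CPM in venlafaxine and 9.63 CPM in control (0.80, adjusted p = 0.133). For both, control replicate 4 lay above most venlafaxine libraries (52.8 CPM for Pou5f1, 26.3 CPM for Nanog), and without it both passed (adjusted p = 0.0102 and 0.0280). The count of 4 was 14 without control replicate 4 and 2 without venlafaxine replicate 1 or 8 or control replicate 1, 6 or 8.

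Some placental genes rose as well, where 11.6% of all genes rose. Of 21 tested trophoblast and placental genes, also a list added after values were seen, 9 rose and none fell, with a median of 0.83. This count too describes only members chosen with values known. Prl2b1, one of the placental prolactin family (chr13:27383339-27390846, minus strand), had 19.7, 27.4 and 37.6 CPM in venlafaxine and 4.42, 9.35 and 16.7 CPM in control (1.54 ± 0.331, adjusted p = 0.00869). Every venlafaxine library lay above every control library. Tpbpb, a trophoblast gene related to cathepsin propeptides, rose by 1.41 ± 0.335 and Ceacam15, an adhesion gene of the placental cluster, by 1.34 ± 0.286, again with no overlap. The family member Prl8a9 rose by 1.28 ± 0.313 and Psg27, a pregnancy-specific glycoprotein gene, by 1.50 ± 0.319. These genes have close paralogs, and the handling of reads that match several of them is not given. The list count was 15 without control replicate 4, 5 without control replicate 8 and 5 without venlafaxine replicate 1.

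**Figure D2:**
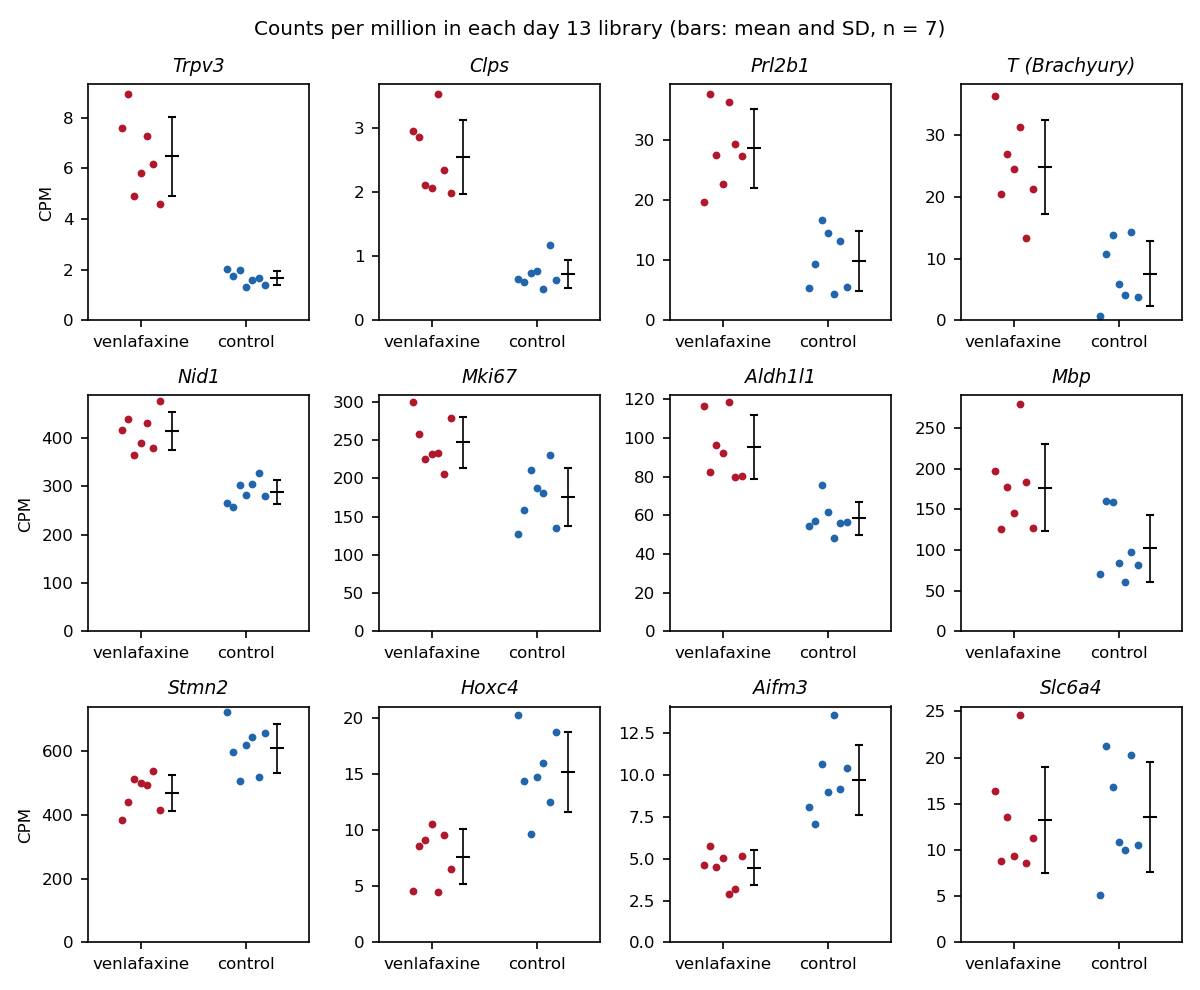
CPM of 12 genes in each day 13 library (vertical axes, linear from 0); points are libraries, venlafaxine left and control right, and bars give the mean and SD (n = 7). Trpv3, Clps, Prl2b1, Nid1, Aldh1l1 and Aifm3 separate the groups fully, T, Mki67, Mbp, Stmn2 and Hoxc4 overlap at the edges, and Slc6a4 overlaps throughout.

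Basement membrane genes rose on day 13, at an age when control levels were below those of day 7. Of 32 tested members of the basement membrane and parietal endoderm list, added after values were seen, 19 rose and none fell, with a median of 0.29. For 9 of the 32 the groups did not overlap, against 1.46% of all genes. Both counts describe members chosen with values known and cannot show a rise of the set. Nid1 encodes nidogen-1, which links laminin to collagen networks (chr13:13437551-13512269, plus strand). Its lowest, median and highest values were 365, 416 and 476 CPM in venlafaxine and 257, 282 and 328 CPM in control (0.52 ± 0.0624, adjusted p = 9.80e-05). Every venlafaxine library was above every control library. On day 7 the effect had the other sign, with a mean of 412 CPM in venlafaxine and 537 CPM in control (-0.38, adjusted p = 0.0199), and the difference between the days was 0.90 (adjusted p = 5.91e-05).

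The type IV collagen chains moved together. Col4a1 had 1428, 1617 and 1871 CPM in venlafaxine and 1142, 1239 and 1413 CPM in control (0.35 ± 0.0786, adjusted p = 0.00975), and was among the 6 most abundant called genes that rose and have a proper symbol. The groups lay close but did not overlap. Its partner chain Col4a2 rose by 0.33 ± 0.0772, the laminin chain gene Lamb1 by 0.36 ± 0.0831 and Sparc, a collagen-binding matrix protein gene, by 0.35 ± 0.0850. Loxl2, which cross-links collagen IV, rose by 0.54 ± 0.0833.

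Sox7, Thbd and Fst rose more than these collagen chains, and which cells expressed them cannot be told from bulk RNA. Sox7, a transcription factor of primitive endoderm, had 6.77, 8.04 and 10.2 CPM in venlafaxine and 3.68, 4.55 and 5.78 CPM in control (0.88 ± 0.122, adjusted p = 4.47e-04). The groups did not overlap. Thbd, thrombomodulin, which is abundant on parietal endoderm, rose by 0.83 ± 0.156 on day 13 and had fallen by 0.63 on day 7 (adjusted p = 0.00380), a difference of 1.45 (adjusted p = 1.58e-05). Fst, follistatin, an activin inhibitor, rose by 0.54 ± 0.0869. The broader list of visceral and parietal endoderm gave 12 of 25 higher and none lower, with a median of 0.35 and 7 members without overlap. Among the endoderm markers 2 of 5 tested rose, Gata6 (0.36) and Ttr (0.46), and Sox17 did not pass (0.01, adjusted p = 0.960). Both lost the call without venlafaxine replicate 1, 2 or 8 or control replicate 1, 5, 6 or 8, and Ttr also without venlafaxine replicate 4 or control replicate 2.

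The effect on the basement membrane list differed between days for 20 of its 32 members, all more positive on day 13. Over all 16964 genes tested for this difference, 7.53% were more positive and 4.89% more negative on day 13. The basement membrane count on day 13 was 11 without venlafaxine replicate 1 and 11 without venlafaxine replicate 8. Of 4 endothelial markers, 3 were called higher when all libraries were fitted. Their sum was 43.1, 56.2 and 78.9 CPM in venlafaxine and 17.4, 28.2 and 68.3 CPM in control. In the wider endothelium list 5 of 16 tested genes rose and none fell, where 11.6% of all genes rose. This count was 1 without venlafaxine replicate 1 or control replicate 1 or 8, and 2 without venlafaxine replicate 8. It was 3 without venlafaxine replicate 2 or control replicate 6, and 11 without control replicate 4. Epithelial markers summed to 192, 251 and 405 CPM in venlafaxine and 83.3, 167 and 280 CPM in control, with 2 of 4 called. Mural cell and fibroblast markers were not called (0 of 5). The part of these other cells in the basement membrane rise was not tested.

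Most genes of the 2 cell cycle lists were called higher when all libraries were fitted, where 11.6% of all genes were. Of 45 genes of mitosis and G2/M, 43 were called higher and none lower, with a median of 0.48 and a largest value of 0.63. Of 40 genes of DNA replication and G1/S, 28 rose and none fell, with a median of 0.41. The log2 fold change of every member of both lists was above 0. The cell cycle runs from D-type cyclins, which release E2F factors to switch on replication genes, to the later wave of mitotic genes read through the cell cycle genes homology region (core TTTGAA) and neighbouring CCAAT boxes. Promoters of 3 mitotic members that rose in all 14 fits are shown. They were chosen only among called members whose windows hold both TTTGAA and CCAAT, so both are present by choice. The sequences are from RefSeq on GRCm38.p6 and run from 250 bases before to 50 after the start of each gene. Capitals mark TTTGAA or CCAAT on either strand (as TTCAAA or ATTGG on the other) for the first 3.
Plk1 promoter: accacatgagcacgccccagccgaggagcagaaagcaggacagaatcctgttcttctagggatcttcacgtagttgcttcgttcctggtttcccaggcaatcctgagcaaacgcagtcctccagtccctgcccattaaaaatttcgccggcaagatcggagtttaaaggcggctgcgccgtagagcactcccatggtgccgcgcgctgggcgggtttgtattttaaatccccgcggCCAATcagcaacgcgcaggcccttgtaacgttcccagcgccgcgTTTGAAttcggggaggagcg
Ncapd2 promoter: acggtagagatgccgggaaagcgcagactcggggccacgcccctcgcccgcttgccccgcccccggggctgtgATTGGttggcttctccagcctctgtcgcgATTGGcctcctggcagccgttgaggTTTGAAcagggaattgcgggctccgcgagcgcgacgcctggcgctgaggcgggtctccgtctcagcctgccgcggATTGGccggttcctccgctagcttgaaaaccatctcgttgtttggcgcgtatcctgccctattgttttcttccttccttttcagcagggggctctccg
Mki67 promoter: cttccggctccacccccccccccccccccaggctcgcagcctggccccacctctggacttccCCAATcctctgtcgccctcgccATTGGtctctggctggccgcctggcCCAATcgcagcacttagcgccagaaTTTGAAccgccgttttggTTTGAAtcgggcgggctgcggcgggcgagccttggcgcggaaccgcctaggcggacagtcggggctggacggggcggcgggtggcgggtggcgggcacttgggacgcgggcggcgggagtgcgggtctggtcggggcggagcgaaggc
The windows lie at chr7:122159185-122159484 on the plus strand for Plk1, chr6:125191537-125191836 on the minus strand for Ncapd2 and chr7:135716330-135716629 on the minus strand for Mki67. A window was matched for 35 of the 43 mitotic genes that rose. TTTGAA was found on either strand in 26 of these (74.3%), against 11.4% of the 11663 tested genes with a window and 18.1% of all 27025 windows. CCAAT was found in 24 of 35 (68.6%), against 38.7% of tested genes and 37.9% of all. The letters describe the windows only.

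Plk1, the kinase that drives entry into mitosis, had 29.2, 32.5 and 43.9 CPM as lowest, median and highest in venlafaxine and 16.8, 21.2 and 32.1 CPM in control (0.58 ± 0.129, adjusted p = 0.0101). Mki67, which encodes the proliferation antigen Ki-67, had 205, 233 and 300 CPM in venlafaxine and 128, 181 and 231 CPM in control (0.49 ± 0.118, adjusted p = 0.0127). In both genes the highest control libraries reached into the venlafaxine range. Ncapd2, a condensin subunit that compacts chromosomes, rose by 0.24 ± 0.0537, Birc5, survivin of the chromosomal passenger complex, by 0.51 ± 0.132, and Tacc3, a spindle protein gene, by 0.46 ± 0.118.

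The replication genes followed at a smaller size. Clspn encodes claspin, an adaptor of the replication checkpoint, and rose by 0.46, though not without venlafaxine replicate 1 (adjusted p = 0.0501). It is shown because its window holds TTTCGCG, a form of the E2F site, here as CGCGAAA on the other strand (capitals, chr4:126556730-126557029, plus strand).
Clspn promoter: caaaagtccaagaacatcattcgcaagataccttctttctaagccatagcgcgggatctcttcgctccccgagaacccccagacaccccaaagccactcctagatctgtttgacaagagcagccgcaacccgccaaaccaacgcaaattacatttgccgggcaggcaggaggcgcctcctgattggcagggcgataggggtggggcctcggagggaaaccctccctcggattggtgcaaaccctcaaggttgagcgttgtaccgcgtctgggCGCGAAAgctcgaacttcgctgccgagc
TTTCGCG was found in 5 of the 21 windows matched among the 28 replication genes that rose (23.8%), against 1.59% of tested genes and 0.844% of all windows. Uhrf1, which helps to copy DNA methylation onto new strands, had 65.0, 75.7 and 110 CPM in venlafaxine and 32.0, 50.6 and 81.4 CPM in control (0.67 ± 0.174, adjusted p = 0.0163). Chaf1a, the large subunit of the histone chaperone CAF-1, rose by 0.55 ± 0.137 and Rfc4, a clamp loader subunit, by 0.36 ± 0.0945. The upstream regulators were mixed: of 18 genes of D cyclins, their kinases and CDK inhibitors 4 rose and 2 fell, with a median of 0.01. Among all genes, 11.6% rose and 11.3% fell. The 4 rises were 0 without venlafaxine replicate 1 or 8, 1 without venlafaxine replicate 2 or control replicate 1, 2 or 8, and 2 without control replicate 6, and the 2 falls were 1 in 8 of the 14 fits. Cdkn2d, the CDK inhibitor p19, fell by 0.26 (SE 0.0594).

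No gene of either list was called on day 7, when 2.81% of all genes were (1.39% higher, 1.42% lower). The effect was more positive on day 13 than on day 7 for 37 of 45 mitotic and 20 of 40 replication genes. Over all genes this held for 7.53%. Levels were still well under those of day 7: Mki67 averaged 732 CPM in day 7 controls. The mitotic count was 8 without venlafaxine replicate 1, 13 without venlafaxine replicate 8, 16 without control replicate 1, 13 without control replicate 8 and 14 with no filter on low counts. The replication count was 4 without venlafaxine replicate 1, 6 without venlafaxine replicate 8, 7 without control replicate 1, 17 without control replicate 6, 7 without control replicate 8 and 9 with no filter on low counts. With replicate numbers fitted as a block, the mitotic count was 1 and the replication count 0, though these numbers were not shown to pair the samples. Against fluoxetine, 13 mitotic and 21 replication genes were higher in venlafaxine, where 6.97% of all genes were. None was called once control replicate 4, venlafaxine replicate 1 and fluoxetine replicate 5 were left out together. Other sets of 3 libraries were not tried.

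**Figure D3:**
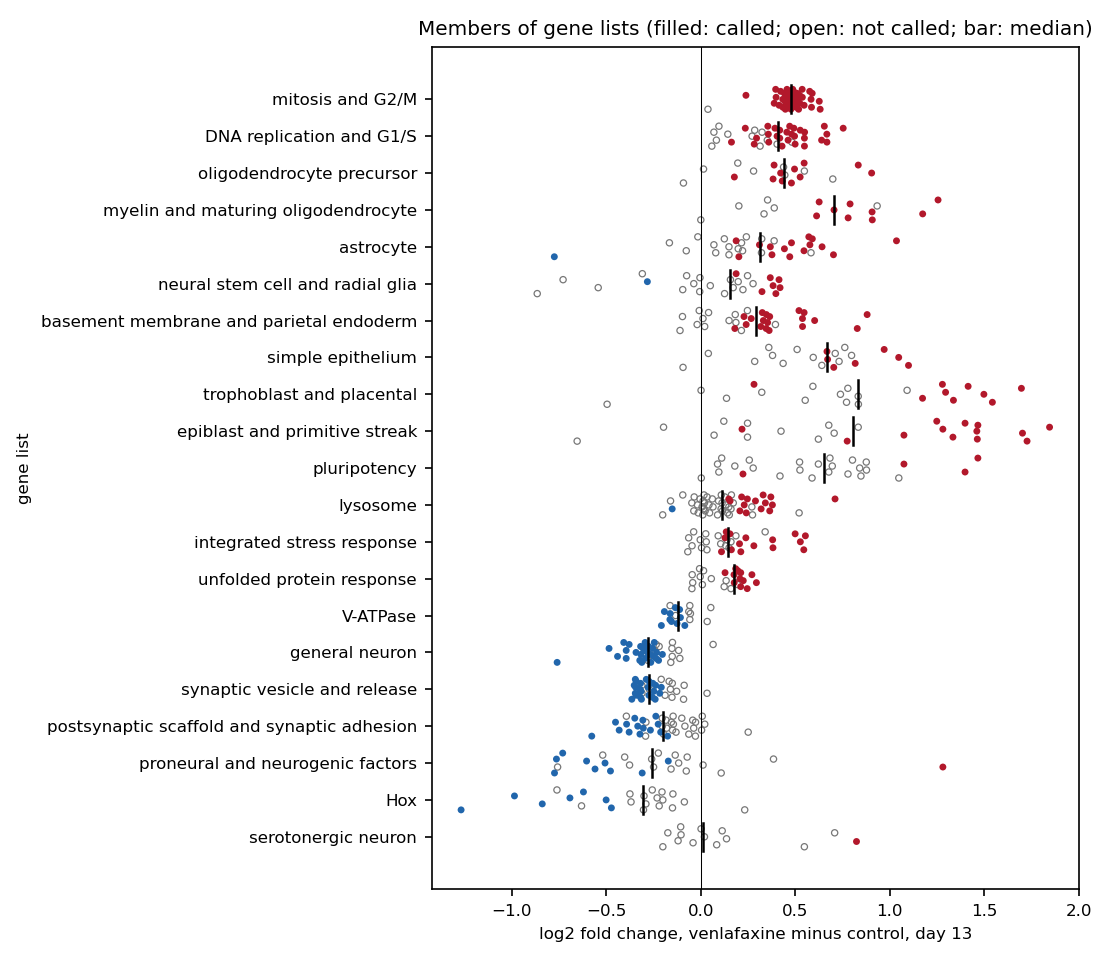
Log2 fold change of each tested member of 21 gene lists (horizontal axis, venlafaxine minus control, day 13); filled red and blue points are called, open points are not, and black bars are medians. Cell cycle members lie close together on the right, with medians of 0.48 and 0.41, and glial and early embryonic lists spread further right. The general neuron, synaptic and proneural lists have medians left of 0, with some members to the right. The serotonergic median is 0.01.

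Progenitor genes changed less than the cell cycle, where 11.6% of all genes rose and 11.3% fell. Of 25 neural stem cell and radial glia genes 7 rose and 1 fell, with a median of 0.16. Sox2, the transcription factor that keeps neural progenitors, had 165, 187 and 217 CPM in venlafaxine and 124, 155 and 190 CPM in control (0.32 ± 0.0859, adjusted p = 0.0172). Fabp7, the fatty acid binding protein of radial glia, rose by 0.41 ± 0.103 and was also higher on day 7 (0.64, adjusted p = 0.00156). Nes, nestin, did not pass (0.22, adjusted p = 0.247), nor did the Notch target Hes5 (-0.01, adjusted p = 0.950). Pax6, a regulator of dorsal progenitors, fell by 0.28 (SE 0.0788) but not without venlafaxine replicate 1 or control replicate 1 or 8. The count of 7 was 2 without venlafaxine replicate 1, 4 without venlafaxine replicate 2, 3 without control replicate 1, 3 without control replicate 6 and 2 without control replicate 8.

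Astrocyte genes rose in larger number. Of 32 tested, 15 rose and 1 fell, with a median of 0.32, against 11.6% higher and 11.3% lower of all genes. Aldh1l1, a folate enzyme gene used as a general astrocyte marker (chr6:90486427-90600203, plus strand), had 79.9, 92.2 and 118 CPM in venlafaxine and 48.1, 56.5 and 75.5 CPM in control (0.70 ± 0.114, adjusted p = 0.00195). The groups did not overlap. Glul, glutamine synthetase, rose by 0.37 ± 0.0627, also without overlap. S100b, a calcium-binding protein of maturing astrocytes, had 4.33, 5.52 and 8.20 CPM in venlafaxine and 1.52, 2.70 and 5.10 CPM in control (1.04 ± 0.238, adjusted p = 0.0108).

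Other rises were those of Mt3, a metallothionein gene (0.44 ± 0.101), and Plpp3, a lipid phosphatase gene (0.20 ± 0.0395), and, from the potassium channel list, Kcnj10, the Kir4.1 channel of glia (0.63 ± 0.130). The member that fell was Gfap, the intermediate filament of reactive and mature astrocytes, with 7.04, 10.2 and 17.5 CPM in venlafaxine and 11.6, 17.9 and 26.6 CPM in control (-0.78 ± 0.220, adjusted p = 0.0217). It did not pass without venlafaxine replicate 1 or control replicate 6. Serpina3n, a secreted protease inhibitor known from reactive astrocytes, also fell, with a median of 3.70 CPM in venlafaxine and 6.53 CPM in control and no overlap (-0.94 ± 0.148, adjusted p = 0.00140). The astrocyte count was 8 without venlafaxine replicate 1.

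Genes of both oligodendrocyte stages were called higher, where 11.6% of all genes were. Of 19 precursor genes 11 rose and none fell, with a median of 0.44, and of 15 genes of myelin and maturing oligodendrocytes 9 rose and none fell, with a median of 0.70. Mbp, myelin basic protein (chr18:82475146-82585637, plus strand), had 126, 178 and 279 CPM in venlafaxine and 61.0, 83.9 and 160 CPM in control (0.79 ± 0.211, adjusted p = 0.0178). Control replicates 2 and 4, at the upper end of their group, lay within the venlafaxine range. Myrf, the transcription factor that switches on myelin genes, had 35.9, 48.4 and 65.6 CPM in venlafaxine and 14.1, 23.3 and 43.5 CPM in control (0.91 ± 0.206, adjusted p = 0.0107).

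Enpp6, a choline phosphodiesterase of newly formed oligodendrocytes, rose by 1.17 ± 0.302. Cnp, a myelin phosphodiesterase gene, rose by 0.63 ± 0.163 and Ugt8a, which makes the myelin lipid galactosylceramide, by 0.61 ± 0.154. Among precursor genes, Bcas1, a marker of early myelinating cells, rose by 0.83 ± 0.187, Matn4, a matrix protein gene, by 0.90 ± 0.233, and Cspg4, the proteoglycan NG2, by 0.55 ± 0.140. Olig2, the lineage's founding factor, did not pass (0.44, adjusted p = 0.0936) but did without control replicate 4 (adjusted p = 0.0345). For 6 of the 15 myelin genes the effect was more positive on day 13 than on day 7, against 7.53% of all genes. The precursor count was 3 without venlafaxine replicate 1, 3 without control replicate 1, 6 without control replicate 6 and 4 without control replicate 8, and the myelin count was 5 without venlafaxine replicate 1, control replicate 1 or control replicate 8.

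Many neuronal genes fell, by small amounts. Of 40 general neuron genes 28 fell and none rose, with a median of -0.28, against 11.3% lower of all genes, and 39 of the 40 lay below 0. Stmn2, a microtubule regulator of growing axons (chr3:8509360-8561606, plus strand), had 383, 494 and 539 CPM in venlafaxine and 507, 620 and 723 CPM in control (-0.38 ± 0.0841, adjusted p = 0.00968). The upper venlafaxine libraries lay within the range of the lowest controls. Its relative Stmn4 fell by 0.44 (SE 0.0995), Eno2, neuron-specific enolase, by 0.49 (SE 0.116), Nefl, the light neurofilament, by 0.39 (SE 0.0874), and Gap43, a growth cone protein gene, by 0.27 (SE 0.0611).

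Among the most abundant called genes that fell was Ttc3, a ubiquitin ligase gene. It had 1048, 1287 and 1316 CPM in venlafaxine and 1275, 1522 and 1664 CPM in control (-0.28 ± 0.0618, adjusted p = 0.00903). Map2, a dendritic microtubule protein gene, did not pass (-0.15, adjusted p = 0.115). Tubb3, neuronal tubulin, fell by 0.22 (SE 0.0741, adjusted p = 0.0372), but not without venlafaxine replicate 1, 2 or 8 or control replicate 1, 2, 5, 6 or 8, nor with the 2 groups alone or with no count filter. The general neuron count was 11 without venlafaxine replicate 1, 10 without venlafaxine replicate 8, 8 without control replicate 1, 15 without control replicate 6 and 10 without control replicate 8.

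Synaptic genes fell with them. Of 36 genes of synaptic vesicles and release 23 fell and none rose (median -0.27), and of 39 genes of postsynaptic scaffolds and synaptic adhesion 15 fell and none rose (median -0.20). Among all genes, 11.3% fell. Syp, the vesicle protein synaptophysin, had 116, 146 and 174 CPM in venlafaxine and 158, 185 and 210 CPM in control (-0.34 ± 0.0851, adjusted p = 0.0140). Syt1, the calcium sensor of release, fell by 0.32 (SE 0.0785) and Stx1a, a plasma membrane SNARE gene, by 0.27 (SE 0.0642). Nptxr, a receptor that clusters glutamate receptors, had 47.1, 63.6 and 68.8 CPM in venlafaxine and 70.3, 78.8 and 92.9 CPM in control (-0.43 ± 0.0907, adjusted p = 0.00835). Its groups did not overlap. Dlgap3, a postsynaptic scaffold gene, fell by 0.30 (SE 0.0721).

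The vesicle count was 7 without venlafaxine replicate 1 or 8 or control replicate 1 or 8, 14 without venlafaxine replicate 2 and 12 without control replicate 6. The postsynaptic count was 5 without venlafaxine replicate 1 or control replicate 1 or 8, 7 without venlafaxine replicate 8 and 8 without control replicate 6. On day 7, 1 gene of each of these lists was called, lower in both cases, where 1.42% of all genes were lower. The effect was more negative on day 13 for 8 of 36 vesicle and 2 of 39 postsynaptic genes. Among all genes this held for 4.89%, and the postsynaptic count was near that share.

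Factors that commit cells to neurons fell in part. Of 25 proneural and neurogenic factors 9 fell and 1 rose (median -0.26), where 11.3% of all genes fell and 11.6% rose. Neurod6, a bHLH factor of cortical excitatory neurons, had 9.28, 13.5 and 18.5 CPM in venlafaxine and 15.4, 22.8 and 33.7 CPM in control (-0.77 ± 0.198, adjusted p = 0.0151), and its relative Neurod2 fell by 0.73 (SE 0.190). On day 7, 4 of the 25 were higher in venlafaxine and none lower, where 1.39% of all genes were higher. The effect was more negative on day 13 for 13 of the 25, against 4.89% of all genes. The count of 9 was 2 without venlafaxine replicate 1 or control replicate 1, 6 or 8, 5 without venlafaxine replicate 2 or 5, and 3 without venlafaxine replicate 8.

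Transmitter lists were less uniform, where 11.3% of all genes were called lower and 11.6% higher. Of 23 genes of GABAergic and glycinergic neurons 9 fell and 2 rose (median -0.38). Sst, the interneuron peptide somatostatin, had 7.83, 12.6 and 17.0 CPM in venlafaxine and 11.7, 20.1 and 29.2 CPM in control (-0.72 ± 0.184, adjusted p = 0.0154). Of 19 genes of glutamatergic neurons 3 fell and 1 rose (median -0.32), and the 3 were 5 without control replicate 4. The GABAergic count was 1 without venlafaxine replicate 1 or control replicate 1, 5 without venlafaxine replicate 2, and 2 without venlafaxine replicate 8 or control replicate 6 or 8. Of 18 neuropeptide genes 6 fell and none rose, among them Scg2, secretogranin II of dense-core vesicles (-0.35 ± 0.0876).

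Receptor and channel lists were mixed, where 11.3% of all genes were called lower and 11.6% higher. Of 27 glutamate receptor genes 2 fell and none rose (median -0.10), of 17 GABA and glycine receptor genes 3 fell and 1 rose (median -0.22), and of 30 potassium channel genes 3 fell and 2 rose (median -0.10). Of 24 voltage-gated sodium and calcium channel genes 6 fell and none rose (median -0.19). The 2 glutamate receptor falls were 0 without venlafaxine replicate 1, 2 or 8 or control replicate 1, 2, 5 or 8, and 4 without venlafaxine replicate 7. The 3 GABA and glycine receptor falls were 1 without venlafaxine replicate 1 or 8 or control replicate 1, 2, 6 or 8, and 9 without control replicate 4. The 3 potassium channel falls were 1 without control replicate 1, and 5 without venlafaxine replicate 7 or control replicate 4. The 6 sodium and calcium channel falls were 0 without control replicate 1 or 8, 1 without venlafaxine replicate 1 or 8, 2 without control replicate 6, 3 without venlafaxine replicate 2, and 10 or 11 without venlafaxine replicate 3 or 7 or control replicate 4 or 7. Kcna4, a voltage-gated potassium channel of axons, had 2.88, 4.78 and 5.29 CPM in venlafaxine and 5.20, 6.85 and 8.70 CPM in control (-0.61 ± 0.130, adjusted p = 0.00856). The highest venlafaxine library just overlapped the lowest control.

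Hox genes, which give hindbrain and spinal cord cells their position, were lower. Of 23 tested 7 fell and none rose, with a median of -0.30, against 11.3% lower of all genes, and 22 lay below 0. Hoxc4 (chr15:103018934-103036852, plus strand) had 4.49, 8.61 and 10.5 CPM in venlafaxine and 9.70, 14.8 and 20.2 CPM in control (-0.99 ± 0.199, adjusted p = 0.00648). Hoxc5, which lies next to it and may share its reads, averaged 0.731 CPM in venlafaxine and 1.79 CPM in control and fell by 1.27 (SE 0.281), and Hoxb4 fell by 0.47 (SE 0.0905). None of the 23 had been called on day 7, and the effect was more negative on day 13 for 4, against 4.89% of all genes. The count of 7 was 3 without venlafaxine replicate 1, 11 without control replicate 4, and 4 without venlafaxine replicate 2 or control replicate 1, 6 or 8. Against the same controls the list's median was -0.57 in fluoxetine.

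**Figure D4:**
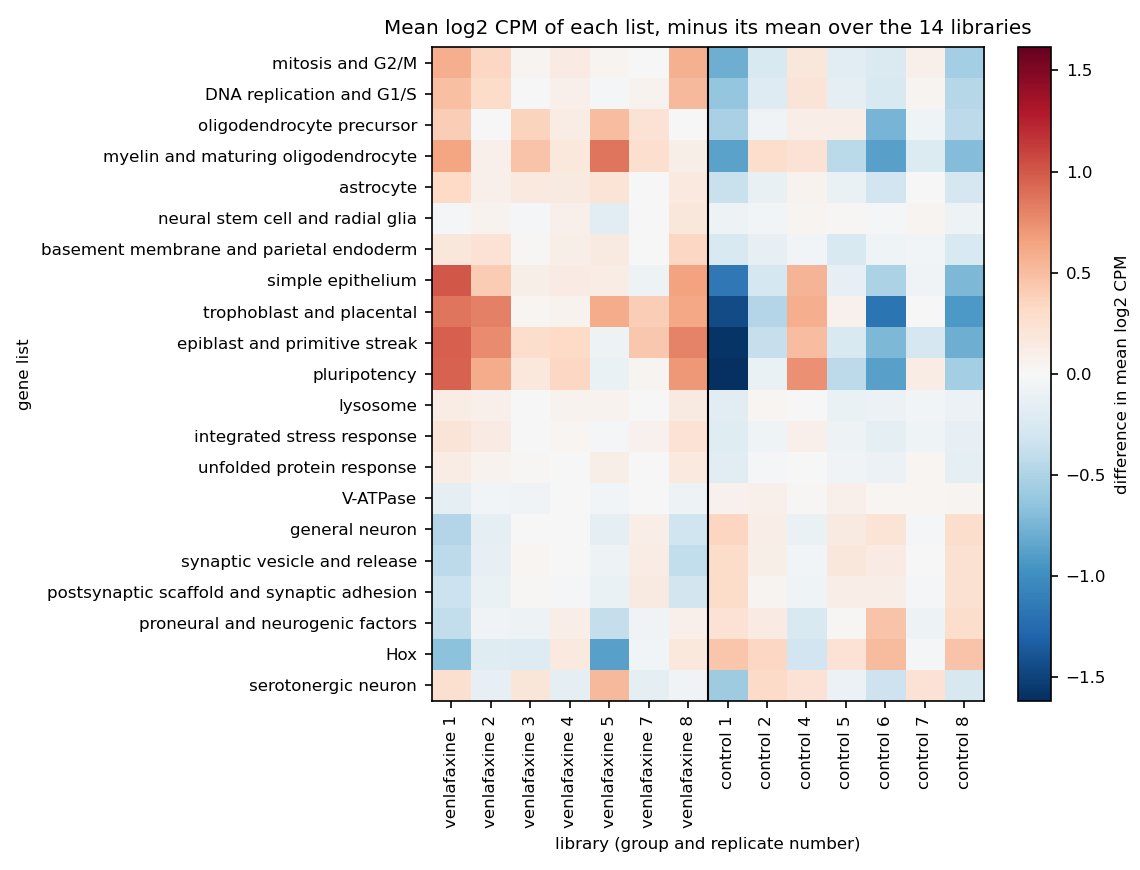
Mean log2 CPM of 21 gene lists in each day 13 library, minus the mean of the list over the 14 libraries (colour); venlafaxine libraries stand left of the black line and control libraries right. Venlafaxine replicates 1 and 8 and control replicates 1, 6 and 8 carry strong colours, control replicate 4 shows early embryonic and cell cycle lists on the venlafaxine side, and the serotonergic row has both signs in both groups.

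Some single genes fell by more than the list medians. Aifm3, a mitochondrial oxidoreductase gene related to apoptosis-inducing factor (chr16:17489611-17507485, plus strand), had 2.89, 4.64 and 5.76 CPM in venlafaxine and 7.10, 9.14 and 13.5 CPM in control (-1.12 ± 0.179, adjusted p = 0.00165). The groups did not overlap. It had fallen by the same size on day 7 (-1.17, adjusted p = 1.84e-05), and the effects of the days differed by 0.05 (adjusted p = 0.932). Tlx1, a homeobox gene of hindbrain and spinal neurons, fell by 1.42 (SE 0.428) but not without venlafaxine replicate 1 or control replicate 1, 6 or 8. Egr2, a factor of hindbrain segments, Schwann cells and neuronal activity, had 0.0965, 0.248 and 0.412 CPM in venlafaxine and 0.621, 0.700 and 1.41 CPM in control (-1.72 ± 0.348, adjusted p = 0.00644), without overlap but at a low level.

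Some lysosomal genes were called higher on each day, whereas called genes of their proton pump were all higher on day 7 and all lower on day 13. Venlafaxine is a weak base, a kind of drug known to collect in acidic lysosomes. Of 54 lysosome genes 15 rose and 1 fell on day 13 (median 0.11), where 11.6% of all genes rose, and on day 7, 23 had risen and none had fallen (median 0.15), where 1.39% of all genes had risen. Ctns, the cystine exporter of lysosomes (chr11:73183596-73199042, minus strand), had 51.3, 55.8 and 59.4 CPM in venlafaxine and 40.7, 45.4 and 49.3 CPM in control (0.32 ± 0.0423, adjusted p = 2.72e-04). Every venlafaxine library lay above every control library. Its effect on day 7 was 0.37 (adjusted p = 4.68e-08), and the difference between the days was -0.05 (adjusted p = 0.603).

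Hexa, a subunit of hexosaminidase, had 57.7, 59.2 and 67.9 CPM in venlafaxine and 42.1, 46.7 and 54.9 CPM in control (0.37 ± 0.0620, adjusted p = 0.00258). The protease gene Ctsl rose by 0.34 ± 0.0677, Gusb, beta-glucuronidase, by 0.33 ± 0.0660, and the transporter gene Mfsd1 by 0.25 ± 0.0596. The TCACGTG letters bound by TFEB, a regulator of lysosomal genes, were in 2 of the 11 windows matched among the 15 that rose (18.2%), against 5.83% of tested genes and 3.84% of all windows. Mfsd1 is shown as one of these (capitals, either strand, chr3:67582518-67582817, plus strand).
Mfsd1 promoter: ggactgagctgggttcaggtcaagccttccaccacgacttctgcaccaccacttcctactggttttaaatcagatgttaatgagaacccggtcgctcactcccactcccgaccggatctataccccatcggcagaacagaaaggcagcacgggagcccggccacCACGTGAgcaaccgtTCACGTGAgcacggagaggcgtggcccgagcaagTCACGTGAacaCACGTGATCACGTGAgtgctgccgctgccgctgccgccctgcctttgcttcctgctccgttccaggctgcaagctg

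The V-ATPase pumps protons into lysosomes and synaptic vesicles. Of its 18 genes 10 fell and none rose on day 13 (median -0.12), whereas 10 had risen and none had fallen on day 7 (median 0.17). Among all genes, 11.3% fell on day 13 and 1.39% had risen on day 7. The effect was more negative on day 13 for 12 of the 18, against 4.89% of all genes. Atp6v1a, the catalytic subunit, had 234, 248 and 260 CPM in venlafaxine and 257, 280 and 298 CPM in control on day 13 (-0.16 ± 0.0377, adjusted p = 0.0111). On day 7 its effect was 0.14 (adjusted p = 0.0367), a difference of -0.30 between the days (adjusted p = 4.89e-04). Atp6ap1, an assembly factor, fell by 0.14 (SE 0.0312) and Atp6v1h, a regulatory subunit, by 0.16 (SE 0.0385), and both had been higher on day 7. The count of 10 was 4 without venlafaxine replicate 1 or control replicate 8, 5 without venlafaxine replicate 8 or control replicate 1, and 6 without venlafaxine replicate 3 or control replicate 2 or 5.

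Genes of cholesterol synthesis lost the rise of day 7. Of 35 genes of cholesterol synthesis, uptake and efflux 12 had risen and 1 had fallen on day 7 (median 0.17), while 7 rose and 8 fell on day 13 (median -0.01). Among all genes, 1.39% had risen on day 7, and 11.6% rose and 11.3% fell on day 13. The effect was more negative on day 13 for 14 of the 35, against 4.89% of all genes. Sc5d, a late enzyme of the pathway (chr9:42251595-42264256, minus strand), had 78.5, 88.1 and 90.7 CPM in venlafaxine and 93.9, 99.3 and 108 CPM in control on day 13 (-0.21 ± 0.0387, adjusted p = 0.00440). The groups did not overlap. Its effect on day 7 was 0.28 (adjusted p = 2.51e-04), a difference of -0.49 between the days (adjusted p = 1.64e-05).

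On day 13 those cholesterol genes that rose included Apoe, the lipid carrier made by astrocytes, by 0.57 ± 0.155, though not without control replicate 1 (adjusted p = 0.0506). The 7 rises were 1 without venlafaxine replicate 1, 3 without venlafaxine replicate 2 or 8 or control replicate 8, 0 without control replicate 1 and 4 without control replicate 6. The 8 falls were 3 without venlafaxine replicate 1 or 8, 5 without venlafaxine replicate 2 or control replicate 6, 2 without control replicate 1 and 4 without control replicate 8. Of 24 genes of fatty acid synthesis and desaturation 6 rose and 1 fell (median 0.09), against 11.6% higher and 11.3% lower of all genes. Srebf1, the regulator of the pathway, rose by 0.30 ± 0.0513 and Me1, malic enzyme, which supplies NADPH, by 0.47 ± 0.0798, both without overlap, and the desaturase gene Scd1 by 0.44 ± 0.0954.

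Glycolysis and hypoxia genes turned from lower on day 7 to partly higher on day 13. On day 7, 19 of 38 had fallen and none had risen (median -0.27), where 1.42% of all genes had fallen. On day 13, 11 rose and 4 fell (median 0.06), where 11.6% of all genes rose and 11.3% fell. The effect was more positive than on day 7 for 20, against 7.53% of all genes. Ndrg1, a hypoxia-induced gene also active in myelinating glia (chr15:66929321-66969640, minus strand), had 69.5, 83.4 and 98.5 CPM in venlafaxine and 48.0, 51.3 and 61.8 CPM in control (0.65 ± 0.0777, adjusted p = 9.80e-05). Every venlafaxine library lay above every control library. Ldha, lactate dehydrogenase A, had 763, 838 and 900 CPM in venlafaxine and 634, 701 and 739 CPM in control (0.26 ± 0.0615, adjusted p = 0.0117), and its effect on day 7 was -0.26 (adjusted p = 0.0318).

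Slc2a1, the glucose transporter GLUT1, rose by 0.59 ± 0.103 and Eno1, the ubiquitous enolase, by 0.25 ± 0.0578. Pfkp, the platelet-type phosphofructokinase common in brain, fell on day 13, with 489, 650 and 891 CPM in venlafaxine and 753, 973 and 1223 CPM in control (-0.58 ± 0.132, adjusted p = 0.0108). The 11 rises were 6 without venlafaxine replicate 1 and 7 without venlafaxine replicate 8 or control replicate 1, 6 or 8. The 4 falls were 1 without venlafaxine replicate 1 or 2 or control replicate 1, 2, 6 or 8, and 2 without venlafaxine replicate 8.

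**Figure D5:**
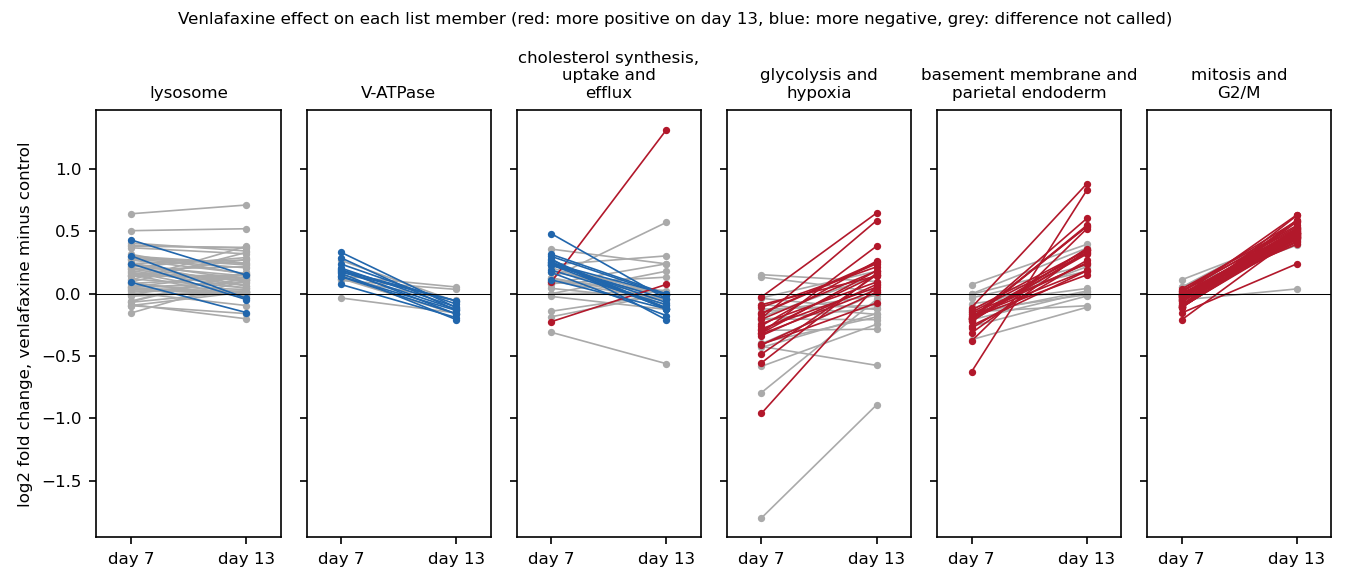
Venlafaxine effect on each member of 6 lists on day 7 and day 13 (vertical axis, log2 fold change against the control of the same day); lines join the same gene, and red or blue marks members whose effect was called more positive or more negative on day 13. Lysosome lines run mostly level, V-ATPase and cholesterol lines fall, and glycolysis, basement membrane and mitosis lines rise.

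Stress and detoxification genes rose in part, where 11.6% of all genes rose. Among 32 integrated stress response and amino acid supply genes 15 rose and none fell (median 0.14), and of 25 genes of the unfolded protein response 12 rose and none fell (median 0.18). Atf3, a stress-induced factor, had 4.29, 4.74 and 6.27 CPM in venlafaxine and 2.85, 3.44 and 3.92 CPM in control (0.53 ± 0.0960, adjusted p = 0.00428). The groups did not overlap. Trib3, a target of ATF4 and CHOP, rose by 0.55 ± 0.118 and Phgdh, the first enzyme of serine synthesis, by 0.38 ± 0.0889. Edem1, a factor that clears misfolded proteins from the endoplasmic reticulum, rose by 0.27 ± 0.0558, while Ddit3, which encodes CHOP itself, did not pass (-0.06, adjusted p = 0.532).

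The integrated stress count was 6 without venlafaxine replicate 1, 7 without venlafaxine replicate 8 or control replicate 1, 9 without control replicate 6 and 8 without control replicate 8, and the unfolded protein count was 6 without venlafaxine replicate 1 and 7 without venlafaxine replicate 8 or control replicate 1 or 8. Of 29 genes of the NRF2 and oxidative stress list 7 rose and none fell (median 0.08), and this count was 4 without venlafaxine replicate 1 or 8 or control replicate 1 or 8. Gpx3, a secreted glutathione peroxidase (chr11:54902453-54910377, plus strand), had 52.0, 58.9 and 71.2 CPM in venlafaxine and 34.4, 37.7 and 45.2 CPM in control (0.60 ± 0.0751, adjusted p = 1.44e-04). Gstm1, a glutathione transferase gene, rose by 0.50 ± 0.0949 and Cat, catalase, by 0.19 ± 0.0361, and none of these 3 overlapped between groups. Hmox1, heme oxygenase, rose by 0.66 ± 0.125.

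Of 19 genes of drug metabolism and efflux 5 rose and none fell (median 0.22), with Cyp2s1 the one that kept its call in all 14 fits. Cyp2s1, an epithelial cytochrome P450 (chr7:25802475-25816913, minus strand), had 10.1, 11.4 and 14.1 CPM in venlafaxine and 5.60, 6.39 and 7.95 CPM in control (0.80 ± 0.0932, adjusted p = 9.80e-05). Every venlafaxine library lay above every control library. The effect exceeded that of day 7 by 0.97 (adjusted p = 3.44e-05). The count of 5 was 1 or 2 without any 1 of venlafaxine replicates 1, 4 and 8 and control replicates 1, 2, 5, 6 and 8, and 3 without venlafaxine replicate 2.

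The drug's own targets did not pass. Slc6a4, the serotonin transporter (chr11:76998603-77032340, plus strand), had 8.64, 11.3 and 24.6 CPM in venlafaxine and 5.17, 10.9 and 21.2 CPM in control (-0.04 ± 0.315, adjusted p = 0.937), and the groups overlapped throughout. Slc6a2, the noradrenaline transporter, had 1.29, 2.51 and 3.38 CPM in venlafaxine and 0.547, 1.24 and 3.57 CPM in control (0.57 ± 0.350, adjusted p = 0.233), and passed once control replicate 4 was left out (adjusted p = 0.0297). Of 14 genes of serotonergic neurons 1 rose and none fell (median 0.01), and of 8 serotonin receptor genes none was called. Tph2, which makes serotonin in neurons, was at -0.12 (adjusted p = 0.764), Fev, the factor that sets serotonergic identity, at -0.11 (adjusted p = 0.805) and Htr1a, the autoreceptor gene, at 0.02 (adjusted p = 0.943). Against fluoxetine cultures, Slc6a4 was lower in venlafaxine by 0.99 (adjusted p = 0.0430). This did not pass without control replicate 4, venlafaxine replicate 1 and fluoxetine replicate 5 (-0.93, adjusted p = 0.132).

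Other lists ranged from no called members to a share above that of all genes, of which 11.6% were higher and 11.3% lower. None of 17 heart and skeletal muscle genes and none of 9 ependymal genes was called, 1 of 26 genes of mesenchyme, mural cells and collagens rose, and 1 of 36 oxidative phosphorylation genes fell (median -0.02). Of 24 p53 target and apoptosis genes 2 rose and 3 fell, and the 3 falls were 1 without venlafaxine replicate 1, 2, 3 or 8 or control replicate 1, 2, 6 or 8. Of 40 cytosolic ribosomal protein genes 9 rose and none fell (median 0.16), which was 0 without venlafaxine replicate 1 or 8 or control replicate 1, 6 or 8, 1 without venlafaxine replicate 2, 2 without control replicate 5, 14 to 18 without venlafaxine replicate 3 or 7 or control replicate 4, and 0 with no count filter or with the 2 groups alone.

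Over all genes, the day 13 effect differed from that of day 7 for 2107 of 16964 genes (12.4%), and 477 genes (2.81%) were called on day 7. Of genes called on both days, 64 had the same direction and 61 the opposite one. Against fluoxetine on day 13, 1986 of 16397 genes (12.1%) differed, 1143 higher (6.97%) and 843 lower (5.14%) in venlafaxine, and 236 without control replicate 4, venlafaxine replicate 1 and fluoxetine replicate 5. Genes that passed in both of these fluoxetine fits included Trpv3, Clps, Nid1, Sox7, Ndrg1, Cyp2s1, Gpx3, Hmox1 and Slc2a1, all higher in venlafaxine. Their adjusted p ran from 0.00102 for Ndrg1 to 0.0225 for Hmox1 with the 3 libraries left out. The doses of the drugs were unequal.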

How the data were processed

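The authors deposited raw counts per gene, 1 column per library, for 52550 genes. The submitters' processing notes name STAR 2.6.0b, featureCounts 1.6.1, bcl2fastq 2.19.0.316 and FastQC 0.11.5, and build GRCm38.p6. Which annotation was counted, with which strand setting, and how multiply matching reads were handled is not given in those notes or the labels, so overlapping genes and close paralogs may share reads. In 26 rows a symbol that a spreadsheet had turned into a date was restored, 52403 rows matched GENCODE vM21, which gave coordinates, and where symbols were shared (90 rows) the name went to the row with more counts.

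Samples were grouped by their labels. Genes were filtered with filterByExpr by group and tested in R 4.3.3 with edgeR 4.0.16 (TMM scaling, robust quasi-likelihood F test, Benjamini-Hochberg adjustment over all genes tested, called under 0.05). The fit held the 21 libraries of day 13, including fluoxetine, and the difference between days was fitted over the 42 libraries of days 7 and 13. Each standard error is the absolute log2 fold change over the square root of F. CPM used TMM-scaled library sizes, and principal components log2 CPM with a prior count of 2. Totals of 14333181 to 29225775 counts per library set the precision, and counting error is small beside the spread between libraries for all but the lowest genes. The code was tested on simulated counts. No 2 libraries were copies of each other.

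The gene lists, cell type markers and members were chosen with earlier results of these data known, and the epiblast, trophoblast and basement membrane lists were added after values were seen, so list counts carry no test of their own and are read against the share of all genes called. Named genes were the 12 highest and 12 lowest fold changes of called genes that had a proper symbol, averaged 2 CPM or more in the group where they were higher, and had 6 or 7 libraries beyond the other group's median, of which some are described, the 6 most abundant called genes per direction, up to 5 members per list with the smallest p, members that show what did not pass, and a panel (Mbp, Olig2, S100b, Gfap, Map2, Slc6a4, Slc6a2, Nanog, Pou5f1, Tubb3, Pax6, Nes). Col4a2, Lamb1, Sparc, Mfsd1, Gata6 and Ttr were named after their values were seen. Alternatives were DESeq2 size factors in edgeR, DESeq2 1.42.0, limma-voom (limma 3.58.1), no count filter, at least 1 CPM in 7 libraries, the 2 groups alone, all 49 libraries and a replicate block. Further fits left out 1 library, or 3 together (control replicate 4, venlafaxine replicate 1 and fluoxetine replicate 5). Promoter windows were those of RefSeq on GRCm38.p6.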

Additional observations from a re-analysis of the deposited data

Results flagged for a closer look

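For 57 of the genes named above the venlafaxine effect on day 13 differed from that on day 7 in edgeR's test of the difference itself (adjusted p under 0.05 over 16964 genes, of which 12.4% passed). The values below are log2 differences, day 13 effect minus day 7 effect, so a positive value means a more positive effect on day 13.

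Among the largest changes and the early embryonic genes they were 2.26 for Clps, 2.04 for Pkd1l1, 1.73 for Car4, 1.60 for Prl2b1, 1.56 for Trpv3 and 1.28 for Sall4. Among matrix and endoderm genes they were 1.45 for Thbd, 0.99 for Sox7, 0.90 for Nid1, 0.74 for Loxl2, 0.73 for Fst, 0.58 for Lamb1, 0.56 for Col4a1, 0.55 for Col4a2 and 0.48 for Sparc. Among cell cycle genes they were 0.74 for Uhrf1, 0.68 for Plk1, 0.65 for Chaf1a, 0.56 for Tacc3, 0.55 for Mki67, 0.52 for Birc5, 0.47 for Clspn and 0.39 for Ncapd2.

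Glial and progenitor genes gave 1.60 for Cspg4, 1.13 for Myrf, 0.91 for Mbp, 0.82 for Cnp, 0.65 for Ugt8a, 0.47 for Glul, 0.43 for Sox2 and 0.26 for Plpp3. Metabolic and stress genes gave 0.97 for Cyp2s1, 0.83 for Gpx3, 0.78 for Slc2a1, 0.75 for Gstm1, 0.67 for Ndrg1, 0.52 for Ldha, 0.51 for Atf3, 0.41 for Eno1, 0.40 for Me1, 0.32 for Phgdh, 0.26 for Edem1 and 0.25 for Cat.

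The effect was more negative on day 13 for neuronal and Hox genes, with -1.64 for Tlx1, -1.23 for Hoxc5, -0.85 for Hoxc4, -0.62 for Syp, -0.59 for Hoxb4, -0.50 for Dlgap3, -0.50 for Stmn2, -0.45 for Eno2, -0.40 for Tubb3 and -0.29 for Ttc3. It was also more negative for the sterol gene Sc5d (-0.49) and the proton pump genes Atp6v1h (-0.36), Atp6v1a (-0.30) and Atp6ap1 (-0.27).

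A library stood apart from the other 6 of its group for 3 genes by Dixon's criterion, which chance alone meets in about 1 of 20 groups. Venlafaxine replicate 1 had the lowest Atp6v1h level of its group, 110 CPM, venlafaxine replicate 4 the highest Hes5 level, 53.6 CPM, and control replicate 1 listed Foxd4 at 0 CPM.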

How the results depend on the processing

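Of the 106 called genes named in the text, 98 kept their call in all 14 fits that left out 1 library. None lost it with DESeq2 size factors in edgeR or with limma-voom, and 1 did with DESeq2 (Egr2). The call was lost by 2 with the 1 CPM filter, 6 with no count filter, 2 with the 2 groups alone and 1 with all 49 libraries. It was lost by 1 without the 3 libraries left out together and by 69 with the replicate block. None changed sign while called. The count of 3753 called genes was 3719 with DESeq2 size factors, 3695 with the 1 CPM filter, 4353 with DESeq2 and 3856 with limma-voom. It was 5164 with all 49 libraries and 4075 without the 3 libraries left out together. It was 2022 (1064 higher, 958 lower) with no count filter, which tested 33155 genes, and 2301 (995 lower) with the 2 groups alone. Of 42 list counts of at least 5 genes, 16 fell by more than 1.5 times with the 2 groups alone, 29 with no count filter and all 42 with a replicate block. With the block 20 of the 42 were 0, among them those of replication, general neuron and V-ATPase genes, and the mitotic and vesicle counts were 1. With the 2 groups alone and with no filter, the count of general neuron genes was 16 and 14, that of vesicle genes 15 and 11, and that of V-ATPase genes 6 and 6. Leaving out 1 library gave 1236 to 5382 called, 633 to 2795 higher and 536 to 2587 lower. Without the count filter, venlafaxine against fluoxetine gave 889 genes and the difference between days 1186. Without the 3 libraries left out together, venlafaxine against fluoxetine gave 236. The replicate numbers shared by both groups were not shown to pair the samples: over 6 numbers the correlation of deviations ran from -0.51 to 0.12, and none was closest to its own number. With them as a replicate block 282 genes were called (185 higher, 97 lower, 281 of them also without the block), 176 against fluoxetine and 904 for the difference between days. The cause of these differences was not tested.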
